A study of Homo sapiens with 18 samples.

Results

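To ask whether Notch1 siRNA (N1) changed the erlotinib response of EGFR mutant lung cancer cells, the effect of N1 relative to non-targeting control siRNA (NTC) was measured in erlotinib and in DMSO, and the effect in DMSO was subtracted from that in erlotinib for every gene. This difference of differences is the same number as the erlotinib response of N1 cells minus that of NTC cells. It is positive where N1 raised a gene more, or lowered it less, in erlotinib than in DMSO. Of 22465 genes with an array feature that names a single gene, 16336 lay above a noise limit (the median of the array on at least 3 arrays) and were tested. The comparison used 12 of the 18 arrays of the series. The other arrays, from cells with Notch3 siRNA, entered the model only to estimate the spread.

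The cells were HCC4006, an EGFR mutant line from a human lung adenocarcinoma. They received NTC or N1 siRNA at 5 nM and were then kept in DMSO, the vehicle, or in erlotinib at 0.1 µM, which blocks the EGFR kinase, so that the groups were NTC DMSO, N1 DMSO, NTC erlotinib and N1 erlotinib with 3 arrays each. Time on drug was 5 days according to the labels and 6 days according to the methods. RNA was read on the GeneChip Human Transcriptome Array 2.0 as log2 values. The methods give 1 siRNA for each target, so effects of that siRNA on other transcripts cannot be told apart from the loss of Notch1. One source label calls the N1 cells a knockout, whereas the titles and the methods give siRNA. Whether the 3 arrays of a group came from separate cultures is not stated, and the p values therefore measure only their spread, which may be technical.

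Notch receptors are cleaved after they bind a ligand on a neighbouring cell, and the released intracellular part joins RBPJ in the nucleus and switches on repressors of the HES and HEY families. EGFR signals through ERK and AKT to drive growth, glucose use and lipid synthesis, and erlotinib blocks its kinase. The interferon response is a set of antiviral genes that cells switch on when RNA sensors detect foreign or double-stranded RNA, and short RNA duplexes such as siRNAs can trigger it in some cells.

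The 8 markers of a lung epithelial line all passed the noise limit, at log2 levels from 7.11 to 11.08. PTPRC, CD3E and LYZ of blood cells, PECAM1 of endothelium and DCN and LUM of fibroblasts stayed below the median of every array. Of the same lists, CDH5 and VWF of endothelium and PDGFRB of fibroblasts lay above the median on all 12 compared arrays, at 4.89 to 5.39, and CD14 of monocytes on 6 of them, at 4.56 to 5.21. Median log2 values over all features ran from 4.84 to 4.99 per array. NTC DMSO replicate 1, N1 DMSO replicate 1 and NTC erlotinib replicate 2 deviated together from the means of their groups, with correlations across genes of 0.687, 0.531 and 0.532. Results are therefore also given without these 3 arrays.

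The NOTCH1 transcript was lower with N1 in DMSO. Its log2 level on the 3 arrays was 6.87, 6.78 and 6.88 in NTC DMSO, 6.63, 6.50 and 6.50 in N1 DMSO, 6.67, 6.67 and 6.65 in NTC erlotinib and 6.62, 6.59 and 6.54 in N1 erlotinib. The N1 arrays were below the NTC arrays in each treatment, with an N1 effect of -0.30 in DMSO (adjusted p = 0.000291 from limma) and of -0.08 in erlotinib, which did not pass the test (adjusted p = 0.214 from limma). The difference of differences was 0.22 (standard error 0.06, adjusted p = 0.0284 from limma). This call was lost under 9 of 21 alternatives, with adjusted p up to 0.0799. NOTCH3 was at 6.97 in NTC DMSO, 6.87 in N1 DMSO, 6.97 in NTC erlotinib and 7.22 in N1 erlotinib, and its difference was 0.35 (standard error 0.09, adjusted p = 0.0152 from limma). A single array feature names each of these genes, and only transcripts are in the values used here.

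At an adjusted p under 0.05 from limma, the difference was higher for 1313 genes (8.04% of those tested) and lower for 986 genes (6.04%). Most differences were small. Among genes called higher the median was 0.29 on the log2 scale, and among genes called lower it was -0.33, beside a median of 0.07 and a share of 62.2% above 0 over all genes. Only 48 genes were called higher and 135 called lower with a difference of at least 1.5-fold. At the thresholds of the study's methods, an unadjusted p under 5e-04 and at least 2-fold, MUC21 and IL7R were higher (0.0122%) and 13 genes lower (0.0796%). Without the 3 arrays that deviated together, 2154 genes were higher and 1652 lower at the adjusted threshold. When the model held the 12 compared arrays alone, the counts were 637 and 458. The counts depended on single arrays. They rose to 2637 higher and 1878 lower without N1 DMSO replicate 1 and to 2059 and 1411 without N1 erlotinib replicate 3. They fell to 852 and 491 without NTC DMSO replicate 1, to 708 and 461 without N1 DMSO replicate 2, to 777 and 432 without N1 DMSO replicate 3 and to 987 and 556 without NTC erlotinib replicate 1. Without NTC erlotinib replicate 3 they were 694 and 478, without N1 erlotinib replicate 1 708 and 441, and without N1 erlotinib replicate 2 632 and 533.

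**Figure D1:**
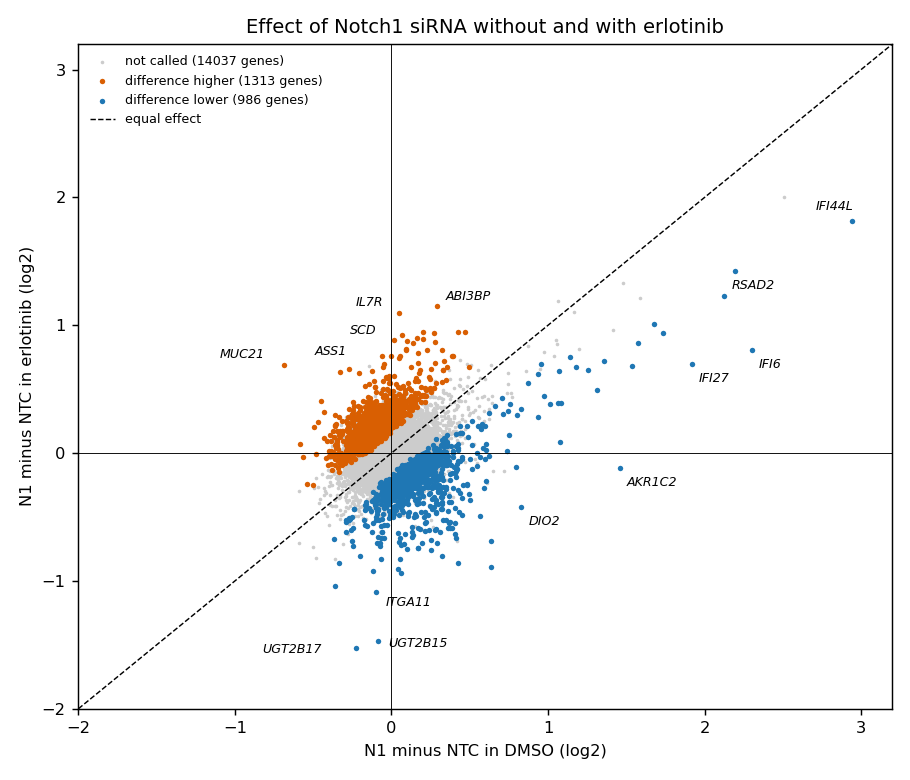
Each point is 1 of the 16336 genes tested, with the mean log2 difference between N1 and NTC in DMSO on the horizontal axis and in erlotinib on the vertical axis, coloured by the call of the difference of differences. The antiviral genes IFI44L, RSAD2, IFI6 and IFI27 lie far to the right and below the dashed line of equal effect, AKR1C2 near 0 on the vertical axis, and UGT2B15 and UGT2B17 at the bottom near 0 on the horizontal axis.

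The erlotinib response itself was similar in NTC and N1 cells over most genes. Erlotinib raised 24.6% and lowered 25.4% of the genes tested in NTC cells, and raised 31.7% and lowered 23.7% in N1 cells. Across the 16336 genes, which are not independent replicates, the responses of NTC and of N1 cells had a Pearson r of 0.884 and a slope of 0.851. The N1 effects in DMSO and in erlotinib, which share no arrays, had an r of 0.183. Of the 1313 genes called higher, 694 had an N1 effect called in erlotinib and not in DMSO, and 300 in DMSO and not in erlotinib. Of the 986 genes called lower, 454 were called in erlotinib alone and 269 in DMSO alone. In 133 genes N1 effects were called in both treatments and ran in opposite directions, with 71 higher and 62 lower in erlotinib. Only the difference of differences tests whether the 2 effects were unequal.

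The gene with the highest difference was MUC21, a membrane mucin of lung and other epithelia. Its log2 level was 7.20, 7.07 and 7.01 in NTC DMSO, 6.51, 6.26 and 6.46 in N1 DMSO, 7.48, 7.49 and 7.44 in NTC erlotinib and 8.23, 8.21 and 8.03 in N1 erlotinib. N1 arrays thus lay below NTC arrays in DMSO and above them in erlotinib, with no overlap. The difference of differences was 1.37 (standard error 0.09, adjusted p = 3.37e-07 from limma). IL7R, the receptor chain for interleukin 7, had levels of 6.45, 6.57 and 6.63 in NTC DMSO, 6.52, 6.70 and 6.57 in N1 DMSO, 5.40, 5.46 and 5.60 in NTC erlotinib and 6.53, 6.60 and 6.61 in N1 erlotinib. Only the NTC erlotinib arrays stood low. The erlotinib response of IL7R was -1.06 in NTC cells and -0.02 in N1 cells, and the difference was 1.05 (standard error 0.09, adjusted p = 4.8e-06 from limma).

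PLAU, the urokinase that activates plasminogen outside the cell, was at 9.28, 9.19 and 9.18 in NTC DMSO, 8.95, 8.96 and 8.93 in N1 DMSO, 8.65, 8.65 and 8.54 in NTC erlotinib and 9.27, 9.27 and 9.28 in N1 erlotinib. Erlotinib therefore lowered it in NTC cells and raised it in N1 cells, and the difference was 0.93 (standard error 0.06, adjusted p = 7.02e-08 from limma). PTGS2, the inducible cyclooxygenase of prostaglandin synthesis, had the same order of groups, from 8.63 to 8.69 in NTC erlotinib, 8.99 to 9.07 in N1 DMSO, 9.23 to 9.26 in NTC DMSO and 9.23 to 9.31 in N1 erlotinib. Its difference was 0.83 (standard error 0.05). ASS1, an enzyme of arginine synthesis, had group means of 9.02, 8.70, 8.31 and 8.95 in NTC DMSO, N1 DMSO, NTC erlotinib and N1 erlotinib, and a difference of 0.96 (standard error 0.07). For all 3 genes the N1 arrays lay below the NTC arrays in DMSO and above them in erlotinib.

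Others of the 12 highest genes differed between N1 and NTC mainly in erlotinib. MACC1, a regulator of MET expression, was at 8.39 in NTC DMSO, 8.33 in N1 DMSO, 7.74 in NTC erlotinib and 8.49 in N1 erlotinib. PIGR, which carries antibodies across epithelia, was at 7.57, 7.67, 6.75 and 7.63 in the same order, and EMP1, an epithelial membrane protein, at 9.45, 9.32, 8.09 and 8.73. Erlotinib lowered these 3 genes in NTC cells, with responses of -0.66, -0.82 and -1.36, and the differences of differences were 0.82, 0.78 and 0.77. PGBD5, a gene derived from a transposase, and ABI3BP, a matrix protein, rose with erlotinib in NTC cells and further in N1 cells. PGBD5 went from 6.59 to 7.47 with NTC and from 6.65 to 8.40 with N1, a difference of 0.86, and ABI3BP from 4.67 to 5.70 and from 4.96 to 6.86, also a difference of 0.86. ABI3BP lay below the median of all features on the NTC DMSO arrays and close to it on the N1 DMSO arrays. It passed the noise limit through groups in which it was high. The histone gene H4C3 had a difference of 0.86 as well, with a larger standard error of 0.16. H4C3 differed in both treatments and in opposite directions, with N1 effects of -0.45 in DMSO and 0.41 in erlotinib.

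**Figure D2:**
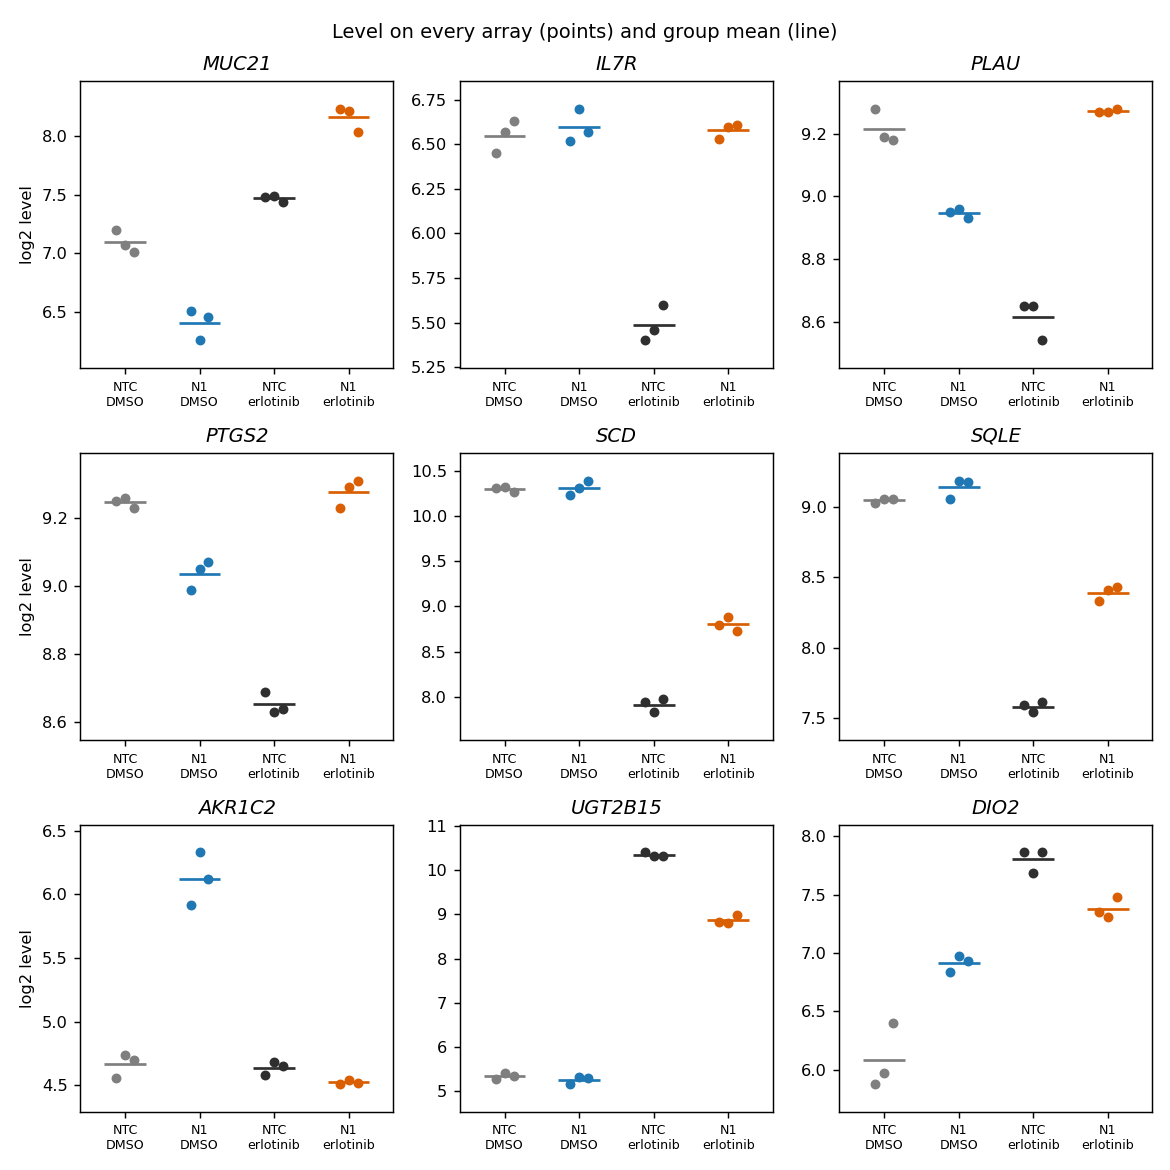
The log2 level of 9 genes on each of the 3 arrays of a group (points) and the group mean (line), each panel with its own vertical range. IL7R, PLAU, PTGS2, SCD and SQLE were lowest in NTC erlotinib, AKR1C2 was high in N1 DMSO alone, and UGT2B15 was high in both erlotinib groups and lower in N1 erlotinib than in NTC erlotinib.

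Among the lowest genes, AKR1C2, UGT2B15 and DIO2 had 3 different orders of the groups. AKR1C2, an aldo-keto reductase that acts on steroids, was at 4.56, 4.74 and 4.70 in NTC DMSO, 5.92, 6.33 and 6.12 in N1 DMSO, 4.58, 4.68 and 4.65 in NTC erlotinib and 4.51, 4.54 and 4.52 in N1 erlotinib. It was high in N1 DMSO alone, and on the other arrays it lay below the median of all features. The difference was -1.57 (standard error 0.11, adjusted p = 3.97e-07 from limma). UGT2B15, which conjugates steroids with glucuronic acid, was at 5.28, 5.42 and 5.36 in NTC DMSO, 5.17, 5.32 and 5.31 in N1 DMSO, 10.40, 10.33 and 10.31 in NTC erlotinib and 8.83, 8.80 and 8.99 in N1 erlotinib. N1 and NTC arrays overlapped in DMSO and were apart in erlotinib, and the difference was -1.39 (standard error 0.08, adjusted p = 5.39e-08 from limma). Erlotinib still raised UGT2B15 in N1 cells, by 3.61 against 4.99 in NTC cells.

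UGT2B17, a close relative of UGT2B15, went from 4.21 to 8.37 with erlotinib in NTC cells and from 3.99 to 6.85 in N1 cells, a difference of -1.30 (standard error 0.17). On all DMSO arrays it lay below the median of all features, so that it passed the noise limit through the groups in which it was high. AKR1C1, at -0.82, and AKR1C3, at -0.55, were highest in N1 DMSO too, with means of 6.01 for AKR1C1 and 5.05 for AKR1C3 in that group. Outside N1 DMSO, AKR1C3 also lay below the median of all features. Close relatives in the AKR1C and UGT2B families may share probe signal, so these are not independent measurements. DIO2, the deiodinase that makes active thyroid hormone, had levels of 5.88, 5.97 and 6.40 in NTC DMSO, 6.84, 6.97 and 6.93 in N1 DMSO, 7.86, 7.68 and 7.86 in NTC erlotinib and 7.35, 7.31 and 7.48 in N1 erlotinib. N1 arrays lay above NTC arrays in DMSO and below them in erlotinib, and the difference was -1.25 (standard error 0.14). CYP1A1, a cytochrome that oxidizes aromatic compounds and is induced through the aryl hydrocarbon receptor, was at 5.89 in NTC DMSO, 6.69 in N1 DMSO, 8.68 in NTC erlotinib and 8.57 in N1 erlotinib, a difference of -0.91.

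Of 17 measured genes of the list of NRF2 targets, AKR1C and UGT2B enzymes, 6 were lower and 2 higher, beside 6.04% and 8.04% over all genes. The median was -0.14. The 6 were AKR1C1, AKR1C2, AKR1C3, AKR1B10 (-0.38, lost under 7 of 20 alternatives), UGT2B15 and UGT2B17. The higher ones were PGD (0.24) and TALDO1 (0.26), both of the pentose phosphate pathway. Among the compared groups, AKR1C2 and AKR1C3 exceeded the median of all features only in N1 DMSO, and AKR1B10 only in DMSO. Like UGT2B17, these 3 genes passed the noise limit through groups in which they were high. With the limit at the 75th percentile, 2 genes of the list were lower and 2 higher. Among other NRF2 targets, NQO1 (0.01), TXNRD1 (0.01) and GCLM (-0.11) had small differences that did not pass the test. Over the list, N1 effects in DMSO were called higher for 11 genes and lower for 0, beside 7.75% and 6.97% of all genes. In erlotinib they were called higher for 7 and lower for 2, beside 11.9% and 9.15% of all genes.

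Interferon-response genes were higher with N1 in both treatments, and for 21 of them the rise was smaller in erlotinib. Of 51 measured genes of the list, 43 were higher and 0 lower with N1 in DMSO, and 44 were higher and 0 lower in erlotinib, with median N1 effects of 0.75 and 0.44. Over all genes, N1 effects were called higher for 7.75% and lower for 6.97% in DMSO, and higher for 11.9% and lower for 9.15% in erlotinib. The difference of differences was lower for 21 and higher for 1 of the 51, against 6.04% and 8.04% of all genes, with a median of -0.25 beside 0.07 over all genes. Of the 21, 20 were also higher with N1 in erlotinib, where SP100 did not pass the test (adjusted p = 0.168 from limma). Without the 3 arrays that deviated together, 26 genes were lower, and with any 1 array left out from 16 to 27. Over all 51 genes, erlotinib raised 23 and lowered 9 in NTC cells, and raised 15 and lowered 20 in N1 cells. Of all genes tested, it raised 24.6% and lowered 25.4% in NTC cells, and raised 31.7% and lowered 23.7% in N1 cells.

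The bases upstream of 6 of these genes are shown because they hold the site to which interferon-activated STAT and IRF factors bind, a pair of GAAA runs with any 2 bases between them. It was searched on both strands in the 250 bases upstream of each start in the RefSeq promoter table, build GRCh38.p14. The site is in capitals, and appears as TTTC runs where it lies on the other strand.
IFI6 (chr1:27672256-27672305, - strand): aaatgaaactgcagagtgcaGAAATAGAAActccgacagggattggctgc
IFI27 (chr14:94110621-94110670, + strand): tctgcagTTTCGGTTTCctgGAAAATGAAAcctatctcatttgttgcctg
IFI44L (chr1:78620355-78620404, + strand): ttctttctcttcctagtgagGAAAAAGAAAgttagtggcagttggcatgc
RSAD2 (chr2:6877612-6877661, + strand): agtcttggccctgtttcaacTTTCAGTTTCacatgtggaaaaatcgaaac
IFIT1 (chr10:89392500-89392549, + strand): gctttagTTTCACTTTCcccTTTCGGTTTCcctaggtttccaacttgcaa
MX1 (chr21:41431834-41431883, + strand): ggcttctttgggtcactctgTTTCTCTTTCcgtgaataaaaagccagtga
The motif was found in 3.71% of the 27305 genes of the RefSeq promoter table and in 29 of the 42 interferon-list genes with an entry (69.0%). Its share was 73.7% among the genes called lower (14 of 19) and 63.6% among those not called (14 of 22). A match is a description of the letters and was not tested as a binding site.

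IFI6, a mitochondrial antiviral protein, had the lowest difference of the list. Its log2 level was 8.27, 8.34 and 8.52 in NTC DMSO, 10.61, 10.56 and 10.86 in N1 DMSO, 10.21, 9.68 and 10.23 in NTC erlotinib and 10.91, 10.94 and 10.69 in N1 erlotinib. NTC DMSO was far below the other groups, and erlotinib alone raised IFI6 by 1.66. The difference was -1.49 (standard error 0.19, adjusted p = 0.000173 from limma). IFI27, at 9.25, 9.11 and 9.32 in NTC DMSO, 11.11, 11.05 and 11.27 in N1 DMSO, 10.57, 10.39 and 10.53 in NTC erlotinib and 11.22, 11.21 and 11.15 in N1 erlotinib, had the same order, and a difference of -1.22 (standard error 0.10). For both genes the N1 cells had nearly the same mean with and without erlotinib, a response of 0.17 for IFI6 and 0.05 for IFI27.

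IFIT1, which binds foreign RNA, had another order of groups, at 4.97, 5.22 and 5.26 in NTC DMSO, 7.11, 7.22 and 7.70 in N1 DMSO, 4.88, 4.62 and 4.78 in NTC erlotinib and 6.26, 6.28 and 6.02 in N1 erlotinib. Its erlotinib response was -0.39 in NTC cells and -1.16 in N1 cells, and the difference was -0.77 (standard error 0.21, adjusted p = 0.0283 from limma), a call lost under 5 of 21 alternatives. On the NTC erlotinib arrays IFIT1 lay below the median of all features (4.94, 4.99 and 4.94), and RMA compresses differences at low levels. IFI44L rose with N1 by 2.94 in DMSO and by 1.81 in erlotinib, where NTC erlotinib replicate 2 was low at 5.38 beside 6.10 and 5.94. Its difference was -1.13 (standard error 0.22, adjusted p = 0.00495 from limma). The differences of RSAD2 and MX1, antiviral effectors, were -0.90 and -0.71. OAS2, which makes a second messenger for RNA decay, rose with N1 by 2.51 in DMSO and 2.01 in erlotinib and did not pass (difference -0.50, adjusted p = 0.0859 from limma). BST2, which tethers virus particles to the cell surface, was the 1 gene higher, at 0.32.

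Of 11 measured genes of RNA sensing and the siRNA machinery, 3 were lower, 0 higher and 8 not called, and the median was -0.12. Over all genes 6.04% were lower and 8.04% higher. RIGI, a sensor of double-stranded RNA, was at 7.71, 7.84 and 7.80 in NTC DMSO, 8.94, 9.10 and 9.25 in N1 DMSO, 8.07, 7.89 and 8.03 in NTC erlotinib and 8.48, 8.50 and 8.49 in N1 erlotinib, with a difference of -0.82 (standard error 0.11, adjusted p = 0.000235 from limma). TLR3, another sensor, was at -0.40, a call lost under 12 of 21 alternatives with adjusted p up to 0.129, and ZC3HAV1, an antiviral protein that targets RNA for decay, at -0.39. The interferon lambda genes IFNL1, IFNL2 and IFNL3 had differences of 0.01, 0.20 and 0.10, none of which passed. In the MHC class I list of 17 genes, where N1 effects were called higher for 11 in each treatment, 2 differences were higher (PSMB10, 0.37, and TAP2, 0.26) and 1 lower (B2M, -0.24). The call of B2M was lost under 9 of 21 alternatives and that of TAP2 under 4.

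**Figure D3:**
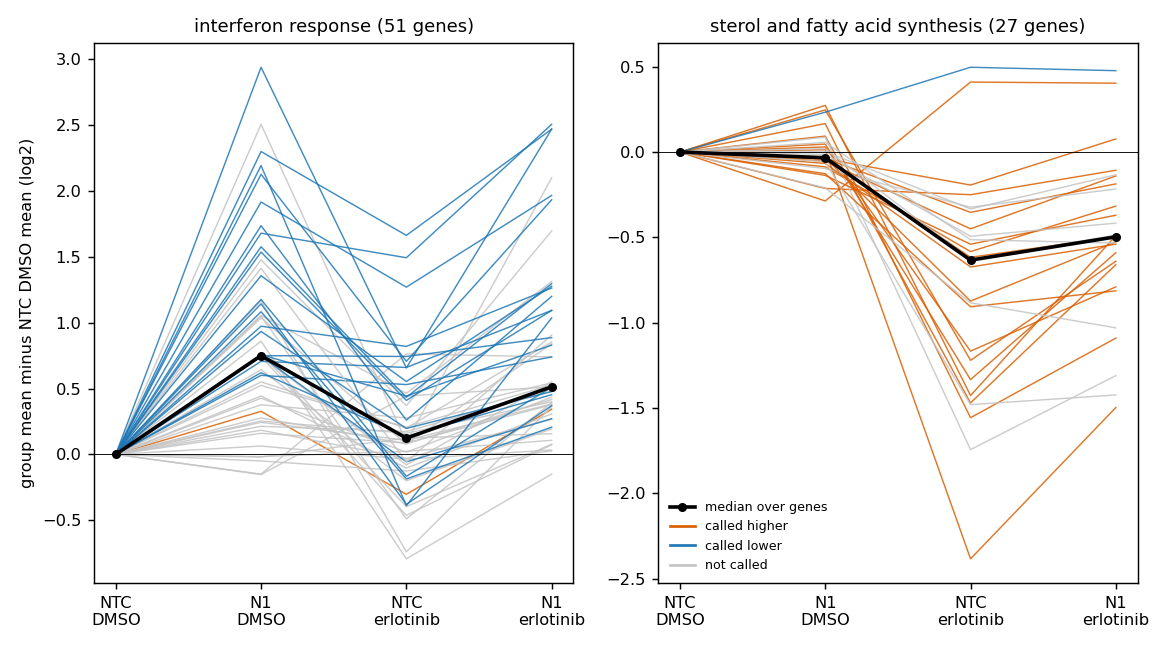
Group means of the 51 interferon-response genes (left) and the 27 genes of sterol and fatty acid synthesis (right), each as the log2 difference from its NTC DMSO mean, with 1 line for each gene and the median over genes in black. The median of the interferon genes rose by 0.75 with N1 in DMSO, and that of the sterol genes was at -0.63 in NTC erlotinib.

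Genes of sterol and fatty acid synthesis fell less with erlotinib in N1 cells than in NTC cells. Of 27 measured genes, 18 had a higher difference, 1 a lower one and 8 did not pass the test, with a median of 0.30, while 8.04% of all genes were higher and 6.04% lower. In NTC cells erlotinib lowered 25 of the 27 and raised 2, and in N1 cells it lowered 22 and raised 2, with median responses of -0.63 and -0.49, and over all genes it lowered 25.4% and 23.7%. In DMSO the N1 effect was called for 7 genes, 4 higher and 3 lower, whereas in erlotinib 18 were higher with N1 and 0 lower, against 11.9% and 9.15% of all genes. Without the 3 arrays that deviated together, 16 differences were higher and 0 lower, and with any 1 array left out from 12 to 20 were higher.

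SCD, which puts the double bond into saturated fatty acids, was at 10.31, 10.32 and 10.26 in NTC DMSO, 10.23, 10.31 and 10.39 in N1 DMSO, 7.94, 7.83 and 7.97 in NTC erlotinib and 8.79, 8.88 and 8.73 in N1 erlotinib. The DMSO groups overlapped, and in erlotinib the N1 arrays lay above the NTC arrays and below all DMSO arrays. The difference was 0.87 (standard error 0.08, adjusted p = 4.55e-06 from limma). SQLE, the squalene epoxidase of cholesterol synthesis, went from 9.05 to 7.58 with erlotinib in NTC cells and from 9.14 to 8.39 in N1 cells, a difference of 0.72 (standard error 0.06). DHCR7, which makes the last step to cholesterol, had a difference of 0.70, MSMO1, a sterol demethylase, 0.66, and fatty acid synthase FASN 0.38. SREBF1 (0.36) and SREBF2 (0.31), the transcription factors that drive this set, were also called higher. SC5D, a late enzyme of the same pathway, was the exception at -0.25, a call lost under 8 of 21 alternatives, with means of 7.56 in NTC DMSO, 7.79 in N1 DMSO, 8.06 in NTC erlotinib and 8.04 in N1 erlotinib. The sterol regulatory element TCACNCCAC was found in the window of 1 of the 25 list genes with a promoter entry (4%), SREBF2, and in 1.09% of all genes of that table.

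Glycolysis and hypoxia-response genes ran the same way with smaller differences. Of 30 measured, 15 were higher and 0 lower, with a median of 0.19, beside 8.04% higher, 6.04% lower and a median of 0.07 over all genes. With any 1 array left out, from 10 to 16 were higher and 0 to 1 lower. When the model held the 12 compared arrays alone, 10 were higher. The hexokinase HK2 was at 7.84, 7.82 and 8.05 in NTC DMSO, 7.82, 7.92 and 7.93 in N1 DMSO, 6.42, 6.35 and 6.46 in NTC erlotinib and 6.94, 7.07 and 6.86 in N1 erlotinib. Only in erlotinib were its N1 arrays apart from the NTC arrays, and the difference was 0.56 (standard error 0.09, adjusted p = 0.00133 from limma). The aldolase ALDOC reached a like difference of 0.55 in another way, since the N1 effect was -0.43 in DMSO, and that in erlotinib, 0.12, did not pass. The lactate dehydrogenase LDHA was at 0.29 and the glucose transporter SLC2A1 at 0.31, while GAPDH, at 0.00, and VEGFA, at 0.04, did not pass.

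**Figure D4:**
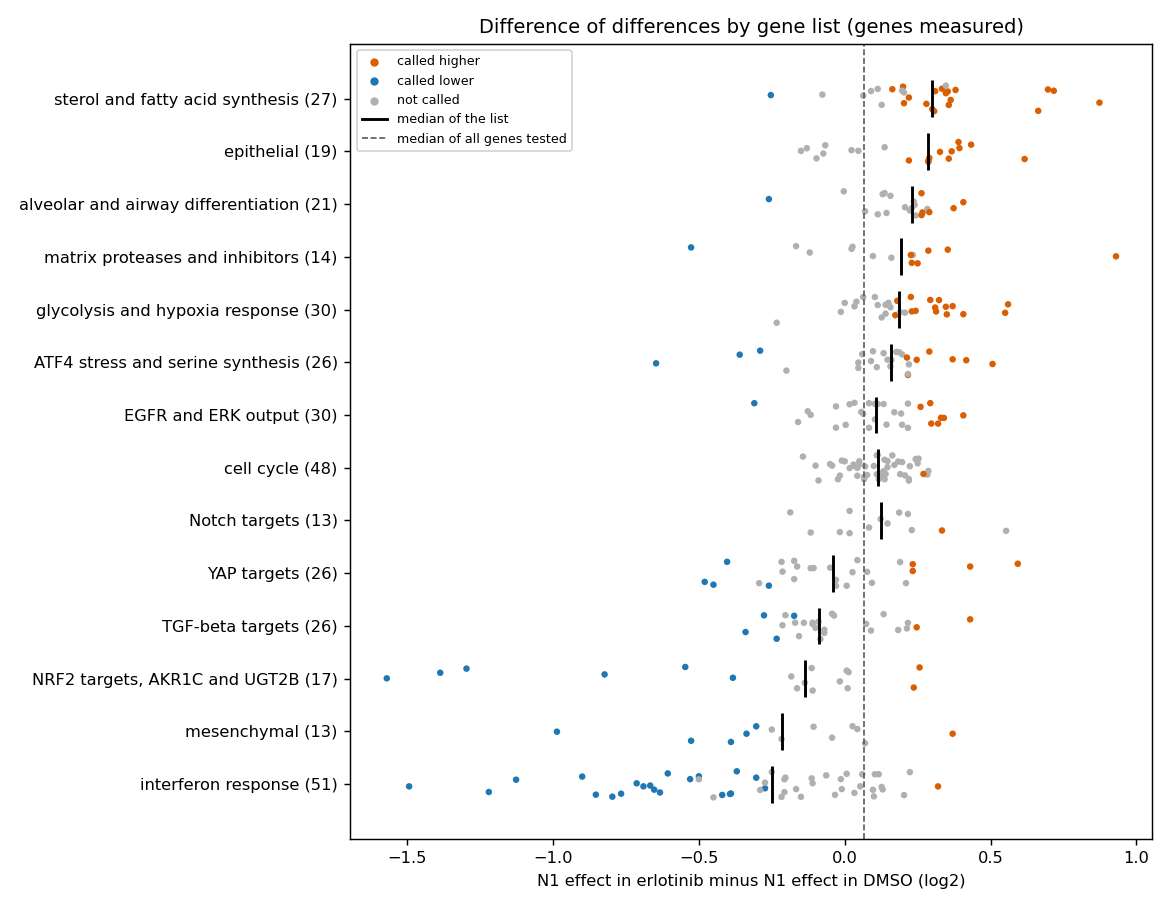
The difference of differences (horizontal axis, log2) of every measured gene of 14 lists, coloured by its call, with the median of each list as a black bar and the median of all genes tested, 0.07, as a dashed line. Sterol (0.30) and epithelial (0.29) genes have the highest medians of the lists shown, and interferon-response genes (-0.25) and mesenchymal genes (-0.22) the lowest.

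Epithelial genes leaned higher and mesenchymal genes lower. Of 19 epithelial genes, 11 were higher and 0 lower, with a median of 0.29, beside 8.04% higher and 6.04% lower over all genes. CLDN3, a tight junction protein, was at 7.91, 7.88 and 8.01 in NTC DMSO, 7.68, 7.69 and 7.61 in N1 DMSO, 8.17, 8.12 and 8.15 in NTC erlotinib and 8.60, 8.52 and 8.35 in N1 erlotinib. N1 arrays were below NTC arrays in DMSO and above them in erlotinib, and the difference was 0.62 (standard error 0.10, adjusted p = 0.00101 from limma). OVOL1, a repressor of mesenchymal fate, was at 0.43, the keratin KRT19 and the claudin CLDN7 both at 0.39, and E-cadherin CDH1 at 0.37, with 10.68 in NTC DMSO, 10.66 in N1 DMSO, 10.69 in NTC erlotinib and 11.04 in N1 erlotinib. EPCAM, at -0.13, GRHL2, at -0.15, and KRT7, at 0.02, did not pass.

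Of 13 measured mesenchymal genes, 5 were lower and 1 higher, with a median of -0.22, beside 6.04% lower and 8.04% higher over all genes. ITGA11, a collagen-binding integrin, was at 5.66, 5.55 and 5.53 in NTC DMSO, 5.54, 5.50 and 5.41 in N1 DMSO, 7.56, 7.32 and 7.47 in NTC erlotinib and 6.38, 6.44 and 6.28 in N1 erlotinib. Its rise with erlotinib was 1.87 in NTC cells and 0.88 in N1 cells, a difference of -0.99 (standard error 0.09, adjusted p = 4.8e-06 from limma). The gelatinase MMP2, at -0.53, went from 7.50 to 8.46 with erlotinib in NTC cells and from 7.17 to 7.60 in N1 cells. The transcription factor SNAI2 (-0.39), vimentin VIM (-0.34) and tenascin TNC (-0.30) were also lower, and the matrix protein SPARC, at 0.37, was higher. CDH2 (-0.22), AXL (-0.11) and FN1 (-0.04) did not pass.

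Of 21 genes of alveolar and airway differentiation, 6 were higher, among them MUC1 (0.41), the lipid transporter ABCA3 of alveolar type II cells (0.37) and SLC34A2 (0.29), a phosphate transporter of the same cells, and LPCAT1, at -0.26, was lower. Their median was 0.23, and over all genes 8.04% were higher and 6.04% lower. Among 14 matrix proteases and inhibitors, 6 were higher and 1, MMP2, lower, beside the same shares over all genes. PLAU was joined by its receptor PLAUR (0.35) and by tissue plasminogen activator PLAT (0.29), and the metalloproteinases MMP14 and MMP15 were at 0.23 and 0.25, calls lost under 6 and 12 of 21 alternatives. The count of proteases higher was 3 without N1 DMSO replicate 3, N1 erlotinib replicate 1 or N1 erlotinib replicate 2, and 2 when the model held the compared arrays alone.

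Of 18 inflammatory genes and NF-kB targets, 4 were higher and 1 lower, beside 8.04% and 6.04% over all genes. The adhesion molecule ICAM1 was at 8.03, 8.03 and 8.11 in NTC DMSO, 8.07, 8.19 and 8.19 in N1 DMSO, 8.75, 8.76 and 8.68 in NTC erlotinib and 9.57, 9.62 and 9.45 in N1 erlotinib. It rose with erlotinib in both, by 0.67 with NTC and by 1.40 with N1, and the difference was 0.72 (standard error 0.08, adjusted p = 3.12e-05 from limma). PTGS2, NFKB2 (0.28) and RELB (0.22, lost under 10 of 20 alternatives) were the other higher genes. TNFAIP3, an inhibitor of NF-kB, was lower at -0.61, with N1 effects of 1.25 in DMSO and 0.65 in erlotinib. The chemokines CXCL1 (-0.0033), CXCL2 (-0.05) and CXCL8 (-0.08) did not pass. Without N1 DMSO replicate 1, or without N1 erlotinib replicate 3, 7 inflammatory genes were higher and 2 lower.

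Stress genes under ATF4 were called in both directions. Of 26 measured, 7 were higher and 3 lower, beside 8.04% and 6.04% over all genes. Those higher included the serine and glycine synthesis enzymes PSAT1 (0.51), SHMT2 (0.42) and PHGDH (0.25, lost under 10 of 21 alternatives) and the amino acid transporter SLC7A5 (0.37), whose call was lost under 5 of 21 alternatives. Those lower were the pro-apoptotic factor DDIT3 (-0.65), the cystine transporter SLC7A11 (-0.36, lost under 6 of 21 alternatives) and ATF3 (-0.29). DDIT3 had means of 5.70 in NTC DMSO, 6.24 in N1 DMSO, 6.27 in NTC erlotinib and 6.17 in N1 erlotinib, so that NTC DMSO alone stood low. The count of ATF4 genes higher was 2 without N1 DMSO replicate 2, NTC erlotinib replicate 3 or N1 erlotinib replicate 1, 3 without N1 erlotinib replicate 2, 4 without NTC DMSO replicate 1 or NTC erlotinib replicate 2, and 11 without N1 erlotinib replicate 3.

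Calls in the Notch pathway itself stand beside 14.1% of all genes called. Of 25 receptors, ligands and cofactors, NOTCH1, NOTCH3 and RFNG, a Fringe enzyme that modifies Notch (0.33), were higher and 0 were lower, and the median was 0.13. The count higher was 5 without N1 DMSO replicate 1 and 7 without N1 erlotinib replicate 3. Of 13 measured targets, HEYL, at 0.33 (standard error 0.09, adjusted p = 0.0259 from limma), passed the test, with means of 5.63, 5.49, 5.73 and 5.93 in NTC DMSO, N1 DMSO, NTC erlotinib and N1 erlotinib. Its call was lost under 7 of 20 alternatives. HES1 had a difference of -0.19 (adjusted p = 0.163 from limma), with means of 7.84 in NTC DMSO, 8.10 in N1 DMSO, 7.33 in NTC erlotinib and 7.41 in N1 erlotinib. The feedback inhibitor NRARP was at 0.55 with a wide 95% interval of 0.07 to 1.04 (adjusted p = 0.104 from limma).

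Cell cycle genes had small differences, and genes of EGFR and ERK output were called higher more often than genes at large. All 48 measured cell cycle genes fell with erlotinib in NTC cells and in N1 cells, with median responses of -2.14 and -2.02. Of all genes tested, erlotinib lowered 25.4% in NTC cells and 23.7% in N1 cells. In the cell cycle list 1 difference was called, beside 14.1% of all genes. It was that of KIF23 of cytokinesis at 0.27, a call lost under 5 of 21 alternatives. After quantile normalization 9 cell cycle genes were higher. The median difference of the list was 0.12. Of 30 genes of EGFR and ERK output, 7 were higher and 1 lower, with a median of 0.11, beside 8.04% higher and 6.04% lower over all genes. The PEA3 factors ETV4 (0.41) and ETV1 (0.34), the EGFR ligands HBEGF (0.33) and TGFA (0.26) and the ERK inhibitor SPRY1 (0.30) were higher, and SPRED1, another inhibitor, was lower at -0.31 and lost its call under 6 of 21 alternatives. Without N1 erlotinib replicate 2, 4 of these genes were higher. The phosphatase DUSP6 (0.06), cyclin CCND1 (0.02) and MYC (-0.12) did not pass. Among receptor kinases that can bypass EGFR, DDR1 (0.44), ERBB3 (0.34) and MET (0.34) were higher and KIT (-0.34) lower of 20 measured, beside the same shares over all genes. The KIT call was lost under 8 of 21 alternatives. The erlotinib response of MET, the receptor of hepatocyte growth factor, was -2.30 in NTC cells and -1.97 in N1 cells.

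Targets of Wnt, YAP and TGF-β were called in both directions. The calls were 2 of 16 Wnt, 8 of 26 YAP and 6 of 26 TGF-β targets, beside 14.1% over all genes. Only the Wnt count lies close to that share. LGR5, a receptor of stem cells and a Wnt target, was at 5.80, 5.92 and 6.42 in NTC DMSO, 5.84, 6.00 and 5.95 in N1 DMSO, 9.88, 9.86 and 9.88 in NTC erlotinib and 8.88, 8.94 and 9.04 in N1 erlotinib. It rose strongly with erlotinib in both, less so with N1, and the difference was -0.80 (standard error 0.16, adjusted p = 0.00416 from limma). SOX9, at 0.44, was the only other gene called of 16 in the Wnt list, and MMP7 had a difference of 0.02 (95% interval -0.14 to 0.18), with means of 6.96 in NTC DMSO, 7.53 in N1 DMSO, 9.66 in NTC erlotinib and 10.25 in N1 erlotinib. Of 26 YAP targets, 4 were higher, led by IGFBP3 (0.59) and CCN2 (0.43), and 4 lower, led by ANKRD1 (-0.48) and CCDC80 (-0.45). Of 26 TGF-β targets, 2 were higher and 4 lower, with the collagen COL1A2 at -0.34. With any 1 array left out, from 2 to 5 YAP targets were higher and 3 to 9 lower, and from 1 to 4 TGF-β targets higher and 1 to 6 lower. Among 9 genes that the study names for these arrays, a list chosen on the same samples, 3 were higher (ABI3BP, CCN2 and HBEGF) and 3 lower (SAMD9L, -0.67, ANKRD1, and GADD45A, -0.26). The GADD45A call was lost under 12 of 21 alternatives. N1 raised these 3 lower genes in both treatments, by less in erlotinib than in DMSO. ANKRD1 was at 10.1, 10.2 and 10.42 in NTC DMSO and 11.07, 11.08 and 11.05 in N1 DMSO. In erlotinib it was at 11.54, 11.49 and 11.47 with NTC and 11.76, 11.78 and 12 with N1.

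Calls of miRNA and snoRNA features were more often lower than higher. Of 447 features named as miRNA genes, 36 (8.05%) were lower and 6 (1.34%) higher, and 20 of the 36 had a MIR548 name. Without the MIR548 names, 16 of 422 (3.79%) were lower and 6 (1.42%) higher. Of 187 features named as snoRNA genes, 19 (10.2%) were lower and 2 (1.07%) higher, beside 5.71% lower and 9.19% higher of the 13562 protein-coding genes. Their median differences were 0.14 for miRNA genes and -0.15 for snoRNA genes, beside 0.07 for protein-coding genes. All 25 measured features with a MIR548 name, a large primate family of miRNAs, had a difference below 0, with a median of -0.87 and a range from -1.53 to -0.37, and 20 were called lower and 5 not called. The chromosome in the feature's identifier was another than that of the named gene in RefSeq for 22 of the 25, against 11 of 16311 other genes tested, so the locus behind most of these features is not settled by its name and no sequence is given for them. MIR421, whose chromosome matched, had a difference of -1.28 (standard error 0.28), and TAS2R30, a bitter taste receptor, -1.08 (standard error 0.23).

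The MIR548 features moved together from array to array. Relative to their NTC DMSO means, their median was -0.10, 0.23 and -0.15 on the NTC DMSO arrays, 0.28, 0.29 and 0.39 on the N1 DMSO arrays, 0.66, 0.42 and 0.59 on the NTC erlotinib arrays and -0.10, -0.26 and 0.47 on the N1 erlotinib arrays. N1 erlotinib replicate 3 thus lay among the NTC erlotinib arrays, and the low level of that group rested on replicates 1 and 2. The number called lower was 25 without N1 erlotinib replicate 3 and 6 without N1 erlotinib replicate 2. It was 8 without N1 erlotinib replicate 1 or N1 DMSO replicate 3, from 10 to 14 without NTC DMSO replicate 1 or 3, N1 DMSO replicate 2 or NTC erlotinib replicate 1 or 3, and 16 without the 3 arrays that deviated together.

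**Figure D5:**
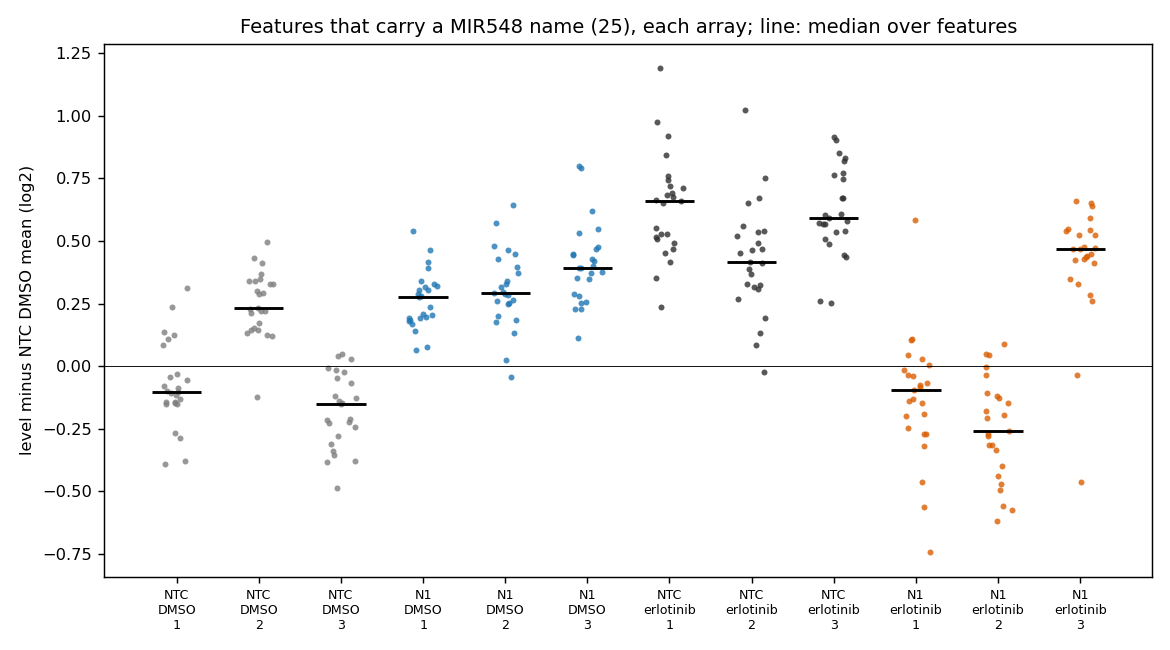
Each point is 1 of the 25 features with a MIR548 name on 1 array, as the log2 difference from its own mean over the NTC DMSO arrays (vertical axis), and the bar is the median over features. The features rise and fall together, and N1 erlotinib replicate 3 has a median of 0.47 beside -0.10 and -0.26 on the other arrays of its group.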

How the data were processed

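Total RNA of HCC4006 cells was hybridised to GeneChip Human Transcriptome Array 2.0 arrays. The deposited values are log2 values with 2 decimals that the authors made by RMA (background correction, normalization between arrays and probe summary, per the methods and the submitters' processing notes). For RMA, the version and annotation build were not given in the sources used here. Low features are still in the table. Of 70523 features, 23781 name 1 gene, 1543 several and 45199 none in the platform annotation used here. RMA compresses differences at low levels.

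Features were kept if they exceeded their array's 50th percentile on 3 or more arrays, and each gene was represented by its feature of highest mean. Of 141 genes named by the rule below, 4 had more than 1 such feature, and all of these had the same sign. R 4.3.3 and limma 3.58.1 (lmFit over 6 group means of all 18 arrays, contrasts.fit, eBayes) gave the tests, with Benjamini-Hochberg adjustment over 16336 genes. The model was tested on simulated data in which the noise was independent between arrays. That test does not cover deviations shared between arrays, as seen for the 3 arrays that deviated together. The 3 arrays in each group limit the precision.

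The members and the gene lists were chosen with earlier results of these data known, and lists are described by counts and medians with no test. Genes were named by a rule: NOTCH1 and NOTCH3, the 12 highest and 12 lowest called genes, up to 4 called members of each list, the genes that the study names for the arrays and the members of the Notch lists. Any further gene was picked with its values in view. Some genes are not reported here.

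Deviations of same-numbered arrays from their group means correlated at 0.687, 0.243 and 0.493 for NTC DMSO with N1 DMSO, but every other pair of groups had a correlation under 0.1 for at least 1 number, so the numbers were not taken as pairs.

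The processing was varied by dropping the noise filter, raising it to the 75th percentile, using all features, fitting the compared arrays alone, quantile normalization, a trended robust fit, a replicate block, other call rules and leaving out each array in turn. After seeing the data, 3 arrays were also left out together and the fit was limited to protein-coding genes.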

Additional observations from a re-analysis of the deposited data

Results flagged for a closer look

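In 14 named genes the N1 effect passed the limma test in both treatments and ran in opposite directions. They were picked for this and for a called difference of differences, so these calls add no further support. N1 and NTC arrays did not overlap in either treatment for 13 of these genes, and for MIR548A2 they overlapped in erlotinib. N1 lowered a gene in DMSO and raised it in erlotinib in 12 cases, with differences of differences of 1.37 for MUC21, 0.96 for ASS1, 0.93 for PLAU, 0.86 for H4C3, 0.83 for PTGS2, 0.62 for CLDN3, 0.61 for ALDH2, 0.51 for PSAT1, 0.50 for WIPI1, 0.44 for DDR1, 0.39 for CLDN7 and 0.37 for ALDH1A3. The opposite order was seen for DIO2, at -1.25, and MIR548A2, at -1.32. The identifier of the MIR548A2 feature gives chromosome 3 and RefSeq places the gene on chromosome 6, so its locus is not settled by its name. Over all genes tested, 133 had such opposite effects.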

How the results depend on the processing

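The counts of called genes moved most. When the model held only the 12 compared arrays, 637 genes were higher and 458 lower. With the replicate number as a block in that model the counts were 691 and 589, so the block added calls, and it also left 10 sterol genes higher and 0 lower. At the thresholds of the methods 2 genes were higher and 13 lower, and at least 1.5-fold 48 and 135. With any 1 array left out, from 632 to 2637 genes were higher and from 432 to 1878 lower, and at the thresholds of the methods from 2 to 3 and from 7 to 29. Chosen after seeing the data, leaving out 3 arrays together gave 2154 higher and 1652 lower, with 20 lower at the thresholds of the methods, and protein-coding genes alone gave 8 of the latter. Medians of lists that moved were -0.095 for mesenchymal genes and 0.107 for matrix proteases with no noise filter, 0.20 for inflammatory genes, 0.017 for p53 targets and 0.093 for stem cell and ALDH genes with the limit at the 75th percentile, 0.095 for MHC class I and 0.14 for bypass kinases over all features, and 0.053 for p53 targets and, with its sign turned, -0.039 for stem cell and ALDH genes after quantile normalization. With any 1 array left out the medians ran from 0.062 to 0.118 for p53 targets, from -0.0083 to 0.068 for stem cell and ALDH genes and from 0.22 to 0.29 for epithelial genes. Of 133 called genes among the 190 recomputed, 90 kept their call under every alternative that gave a value, 43 lost it under at least 1, and 0 turned direction. The smallest differences called were 0.16 and -0.16.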

Other observations

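Lysosome and autophagy genes, which digest and recycle cell components, had 5 of 21 measured members higher and 0 lower, with a median of 0.16, beside 8.04% higher and 6.04% lower over all genes. They were WIPI1 of the forming autophagosome (0.50), the cathepsins CTSZ (0.40) and CTSB (0.25), the acid glucosidase GAA (0.33) and the calcium channel MCOLN1 (0.23, a call lost under 11 of 21 alternatives), and from 4 to 10 were higher with any 1 array left out. Of 14 stem cell and ALDH genes, 4 were higher, among them the aldehyde dehydrogenases ALDH2 (0.61) and ALDH1A3 (0.37), and LGR5 was lower. These counts stand beside the same shares over all genes. ALDH2 had means of 7.75 in NTC DMSO, 7.51 in N1 DMSO, 7.85 in NTC erlotinib and 8.21 in N1 erlotinib.

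Of 24 CDK inhibitors and p53 targets, 3 were higher, among them the death receptors FAS (0.44) and TNFRSF10B (0.35), and GADD45A was lower. These counts lie near the 8.04% higher and 6.04% lower over all genes. Among 20 clustered histone genes 2 were higher, H4C3 and H2BC12 (0.47), and H2AC6 was lower (-0.55), a call lost under 10 of 21 alternatives. The histone counts also lie near those shares, and close copies in these clusters may share probe signal. Of 13 BCL2 family genes 2 were higher and 1 lower, and of 18 ribosome biogenesis genes 2 were higher and 2 lower, shares that stand beside the 8.04% and 6.04% over all genes. With any 1 array left out, the counts higher ran from 0 to 5 and from 0 to 4.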
